A study of Mus musculus with 2 samples.

Results

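The complement genes C1qa, C1qb, C1qc, C3, C4b, Cfp, C3ar1 and C5ar1 were followed through cells taken from the central nervous system of transplanted mice. They were picked by symbol as components and receptors of 1 system, and all 8 were found among the 32285 genes of both libraries. Complement is a cascade of plasma and tissue proteins that marks targets for uptake by phagocytes. C1q, built from the chains encoded by C1qa, C1qb and C1qc, binds the target, C4 and C3 are cleaved and deposited on it, and properdin (Cfp) stabilises the enzyme that cleaves C3. The fragments released are sensed by the receptors C3ar1 and C5ar1, and in the brain microglia are known as a main source of C1q, where complement has been tied to the removal of synapses.

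The study set cells grown from Cx3cr1 haploinsufficient donor stem and progenitor cells beside cells from wild-type donors, with 1 single-cell library labelled Cx3cr1-/+ and 1 labelled Cx3cr1+/+. Cx3cr1 encodes the fractalkine receptor of microglia and monocytes. Both libraries are labelled microglia-like cells of the CNS, and both carry 1 protocol text: the lineage-negative (Lin-) pool of Cx3cr1-/+ mice was sorted into GFP+ and GFP- cells, which were given IV to CD45.1 recipients treated with busulfan, a drug that clears the marrow, in 4 doses of 25 mg/kg. The labels give no donor text for wild-type cells, no sex, age or time after transplantation, and no number of animals, and no label separates donor cells from the recipient's own. Values are given in the order heterozygous, then wild type, and every ratio is heterozygous over wild type. With 1 library per genotype there is no replicate check: each difference is one between these libraries, and every interval is a 95% interval that covers counting error only.

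The libraries held 17828344 and 22062823 unique molecular identifiers (UMIs, 1 per captured transcript) in 1837 and 2359 barcodes, of which 1489 and 1949 passed the filter of at least 500 genes and under 10% mitochondrial UMIs. The median depth of these cells was 6880 and 6637 UMIs. The libraries shared 339 cell barcodes, of which 255 and 198 were kept, and results that the text turns on are also given without them. Clustering without the complement genes gave 19 clusters, 3 of them without a name. The targeted gene itself, Cx3cr1, was at 632 and 727 CPM (UMIs of a gene per 1000000 UMIs of the cells summed) over all kept cells. It was lower in the heterozygous library in neutrophil-like cells (628 and 791 CPM), patrolling monocyte-like cells (409.8 and 547 CPM) and the Gpnmb cluster (861 and 1140 CPM). In the microglia-like class it was at 2219 and 2223 CPM, but the clusters of that class went opposite ways. The cluster led by Adamts1, P2ry12 and Nav3 had 2686 and 2844 CPM, and that led by Sparc, Klk8 and Ltc4s 803 and 655 CPM. The sources used here do not say whether the 3′ end counted lies in the altered part of the allele. The 10 microglia markers were all detected in the microglia-like cells of both libraries, at 13843 and 14805 CPM summed. These cells were 207 of 1489 and 306 of 1949 kept cells, so most kept cells lay outside the clusters named microglia-like here. That name comes from the markers used here, and the labels do not say which other clusters they cover. Cells with Xist UMIs and no Y-linked UMI numbered 1054 and 230, and cells with the reverse 36 and 780, so sex marks and genotype cannot be told apart over the whole libraries.

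The C1q genes lie side by side on the minus strand of chromosome 4 (GRCm38): C1qb at chr4:136880129-136886187, C1qc at chr4:136889804-136893065 and C1qa at chr4:136895917-136898803. Only 3616 and 2851 bases separate them, and the 3 genes span 18675 bases. The stretches of 250 bases before the RefSeq starts of C1qb (chr4:136886201-136886450, minus strand) and C1qc (chr4:136892915-136893164, minus strand) are shown because the 3 neighbouring genes kept nearly 1 ratio across clusters, described next to their levels. They were taken from RefSeq, GRCm38.p6. The RefSeq start of C1qc lies inside the gene as placed above, so part of its stretch overlaps that gene. Capitals mark matches to GAGGAA, the core recognised by the myeloid factor PU.1, or to its reverse complement TTCCTC.
C1qb: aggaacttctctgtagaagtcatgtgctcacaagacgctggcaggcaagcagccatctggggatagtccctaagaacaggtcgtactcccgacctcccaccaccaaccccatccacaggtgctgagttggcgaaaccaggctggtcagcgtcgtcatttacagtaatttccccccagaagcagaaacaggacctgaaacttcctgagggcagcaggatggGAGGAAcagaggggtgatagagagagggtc
C1qc: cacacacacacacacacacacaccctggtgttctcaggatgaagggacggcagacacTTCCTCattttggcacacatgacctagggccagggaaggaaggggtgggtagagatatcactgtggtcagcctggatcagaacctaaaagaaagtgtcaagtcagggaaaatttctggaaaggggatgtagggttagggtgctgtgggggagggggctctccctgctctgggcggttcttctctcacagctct
Both strands were searched, over 300 bases that reach 50 bases past the start. C1qb had 1 match, at position -30 from the RefSeq start, and C1qc had 1 on the other strand, at position -193 from its RefSeq start. The same letters occurred in 28.3% of 32851 RefSeq promoters of that length. Among the members with a promoter sequence (6 of 8, without C1qa and C4b), Cfp had 2 matches and C3, C3ar1 and C5ar1 had none. CCAAT occurred once, in C5ar1, against 37.4% of promoters. TATAAA occurred in C3 and C3ar1, against 13.6%. The letters GAAA, any 2 bases and GAAA again, as in interferon response elements, occurred in 0 of the 6, against 3.44% of promoters. These are matches of letters and not measured binding sites.

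C1q was abundant in macrophage-type cells of both libraries. The 3 chains summed to 26542 and 27787 CPM in the microglia-like cluster led by Sparc, Klk8 and Ltc4s (111 and 177 cells). They reached 18348 and 18987 CPM in the microglia-like cluster led by Adamts1, P2ry12 and Nav3 (96 and 129 cells). An unnamed cluster led by Gpnmb, Spp1 and Apoe held 20679 and 18130 CPM (154 and 54 cells). The border-associated macrophage-like cluster, led by Ccl7, Cd209f and Lyve1, held 20233 and 16320 CPM (23 and 28 cells). The order of these last 3 clusters was not the same in both libraries, whereas the Sparc cluster was highest in each. The Sparc cells were shallow, with a median of 2783 and 2557 UMIs against 9438.5 and 8687 in the P2ry12 cluster.

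Below the macrophages came cells of the blood lineages. The smaller patrolling monocyte-like cluster, led by Dusp16, Ear2 and Ace (38 and 57 cells), held 9307 and 8544 CPM of C1q. Dendritic cell-like cells (198 and 244) held 7694 and 6266 CPM, and the neutrophil-like cluster led by Camp, Ngp and Lcn2 (204 and 305 cells) held 6943 and 6151 CPM. Classical monocyte-like cells (98 and 165) were lower, at 1767 and 1259 CPM. The larger patrolling cluster, led by Cd300e, Fabp4 and Ace (179 and 406 cells), was lower again at 625 and 555 CPM. Natural killer (NK) cell-like cells, which should lack C1q, still gave 92.0 and 328 CPM, read here as background. Other clusters outside the phagocytes reached higher. B cell-like cells gave 858 and 704 CPM, and an unnamed cluster led by Igfbp7, Ly6c1 and Mgp gave 917 and 259 CPM. Mast cell or basophil-like cells (14 and 14) gave 3846 and 670 CPM, and 2 of the heterozygous cells held 98.0% of the C1q UMIs there. The level of the larger patrolling cluster lay within the range of these clusters. In the heterozygous library, that of classical monocyte-like cells did too. The source of this C1q was not tested.

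**Figure D1:**
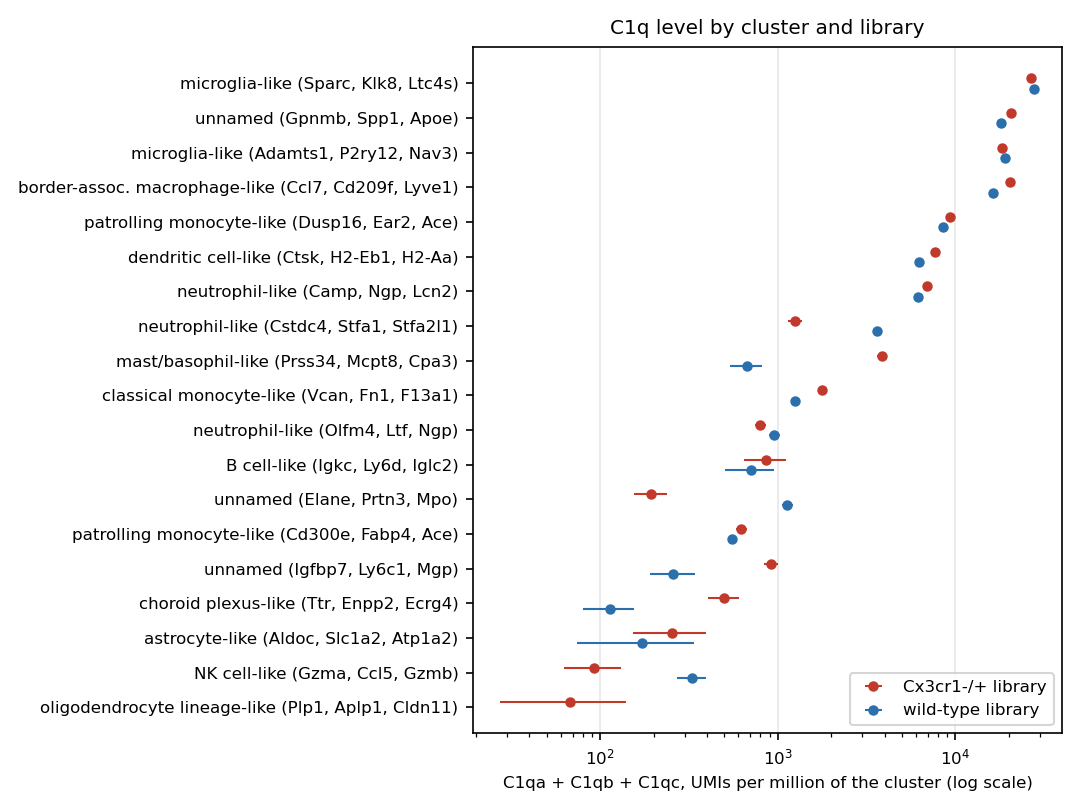
Summed level of C1qa, C1qb and C1qc in each of the 19 clusters (CPM, log axis), with 1 point per library and exact Poisson 95% intervals. The microglia-like, Gpnmb and border-associated macrophage-like clusters lie between 16320 and 27787 CPM in both libraries, and NK cell-like cells lie at 92.0 and 328 CPM.

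The share of cells with C1q was also highest in the macrophage-type clusters. After each cell was thinned to 2000 UMIs, all 3 chains were seen together in 82 of 85 (96.5%) and 113 of 116 (97.4%) cells of the P2ry12 cluster, and in every one of the 78 and 111 Sparc cells. They were seen together in 147 of 148 and 46 of 46 Gpnmb cells and in 21 of 21 and 22 of 22 border-associated macrophage-like cells. In these 4 clusters nearly every cell carried the full set. In dendritic cell-like cells the share was 78 of 139 (56.1%) and 105 of 207 (50.7%), in the Camp neutrophil-like cluster 136 of 184 (73.9%) and 176 of 286 (61.5%), and in classical monocyte-like cells 12 of 90 and 17 of 154. In NK cell-like cells it was 0 of 26, which allows a detected share of up to 11.5% at this depth, and 1 of 51 cells. Any chain was seen in 11.5% and 19.6% of NK cell-like cells, so a single chain in a cell is read here as background.

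Cells within a cluster were not alike in all clusters. In the P2ry12 microglia-like cluster the per-cell C1q level had a median of 18263 and 19053 CPM, and 10% of cells lay under 9617 and 8441 CPM. The 10% of cells with most C1q held 32.9% and 31.6% of the cluster's C1q UMIs there. In classical monocyte-like cells the median was 212 and 158 CPM and the same fraction of cells held 78.0% and 81.8%. A few cells therefore set the classical monocyte-like sum. Among dendritic cell-like cells, 20 and 38 had no C1q UMI at all while the medians were 6426 and 4404 CPM.

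The 3 chains kept a similar ratio in most clusters where they were abundant, but not in the Sparc cluster, which held most C1q. C1qb made up 36.6% and 36.0% of the C1q UMIs in the P2ry12 cluster, 39.5% and 39.9% in the Gpnmb cluster and 37.4% and 36.1% in border-associated macrophage-like cells. The Sparc cluster stood apart at 42.4% (interval 41.4 to 43.3%) and 42.8% (42.0 to 43.5%). The Camp neutrophil-like cluster had 36.8% and 37.2%, and the Olfm4 neutrophil-like cluster 40.9% and 40.5%. The libraries lay farther apart in the Cd300e patrolling cluster (46.5% and 40.3%) and in the unnamed cluster led by Elane, Prtn3 and Mpo (46.7% of 92 UMIs and 37.6% of 752). These shares compare clusters and not chains, since 3′ counts of different genes are captured unequally. Over the 30 columns made by 15 clusters in 2 libraries, log2(CPM + 10) of C1qa correlated with C1qb at r = 0.997 and with C1qc at 0.994, a description of columns that share libraries.

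**Figure D2:**
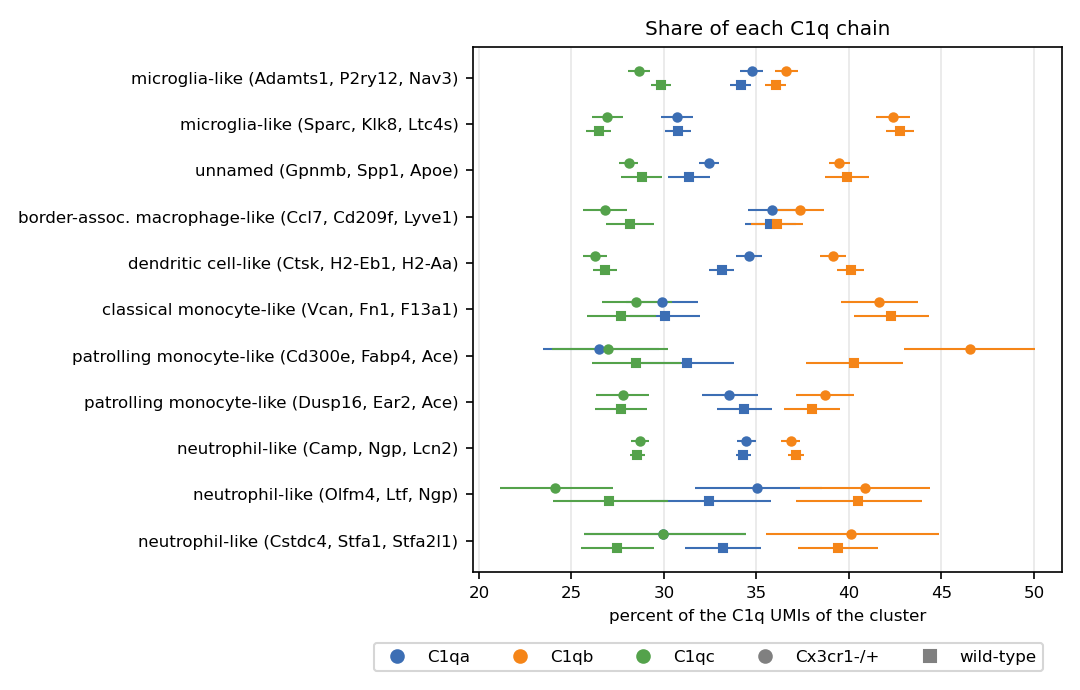
Percent of C1q UMIs from C1qa, C1qb and C1qc in 11 clusters and both libraries, with exact Clopper-Pearson 95% intervals. C1qb lies at 42.4% and 42.8% in the Sparc microglia-like cluster against 36.6% and 36.0% in the P2ry12 microglia-like cluster.

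Between the libraries, C1q of the microglia-like cells, pooled over sex marks, hardly differed. The log2 ratio of the sum was -0.05 (interval -0.07 to -0.02) in the P2ry12 cluster and -0.07 (-0.10 to -0.03) in the Sparc cluster. The joint microglia-like class gave -0.08 (-0.10 to -0.06), and -0.02 without the shared barcodes. Under a stricter cell filter it was 0.06 and at resolution 1.0 it was 0.04, on the other side of 0. A difference in microglial C1q of the size of 1.5-fold was thus outside the counting interval in both clusters. Sex marks were pooled in these ratios, although wild-type P2ry12 cells with the Xist mark held more C1q than those with both marks. Higher sums in the heterozygous library were seen in the Gpnmb cluster (0.19, 0.15 to 0.23), in dendritic cell-like cells (0.30, 0.27 to 0.33), in border-associated macrophage-like cells (0.31, 0.25 to 0.37) and in classical monocyte-like cells (0.49, 0.40 to 0.57). All 4 stayed under 1.5-fold. The dendritic cell-like gap narrowed without a cell filter (7125 and 6655 CPM) and widened without the shared barcodes (8265 and 6074 CPM). The Gpnmb gap widened without a cell filter (18480 and 14120 CPM). In border-associated macrophage-like cells the levels were 20020 and 16250 CPM without a cell filter, and 19570 and 16350 CPM without the shared barcodes. Among Xist-marked cells, given further below, that gap was narrower. The classical monocyte-like ratio was 0.06 without a cell filter (1881 and 1807 CPM), 0.02 with the stricter filter, 0.04 at resolution 0.25 and 0.13 with the complement genes kept in clustering.

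C1q in the patrolling and neutrophil-like cells depended on which cluster was read. Over both patrolling clusters the sum was 2756 and 1793 CPM, a log2 ratio of 0.62 (0.56 to 0.68), while the clusters alone gave 0.12 and 0.17. The Dusp16 cells, rich in C1q, made up 38 of 217 and 57 of 463 patrolling cells, so the class value moves with the share of that cluster. Without a cell filter the class was at 1070 and 1069 CPM and with the stricter filter at 1043 and 952 CPM (0.13). Without the shared barcodes the class was at 2346 and 1791 CPM (0.39), and among Xist-marked cells of both libraries the ratio was -0.064. In the Dusp16 cluster the 10 microglia markers were all detected and summed to 4192 and 4566 CPM, against 333 and 329 CPM in the Cd300e cluster, and their part in its C1q was not tested. In neutrophil-like cells the Camp cluster had a ratio of 0.17 (0.15 to 0.19), but the cluster led by Cstdc4, Stfa1 and Stfa2l1 was at 1253 and 3610 CPM (-1.53, -1.68 to -1.38). Microglia markers in those cells summed to 787 and 2005 CPM and so were higher in the same library as C1q.

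The Camp cluster carried microglia markers as well as neutrophil markers. All 10 microglia markers were detected there, at 3577 and 3457 CPM, and the cells were deep, with a median of 22698.5 and 20217 UMIs. At a finer resolution the Camp cluster split. Of its cells 210 went to a neutrophil-like cluster (5081 and 4309 CPM of C1q) and 193 to an unnamed cluster led by Acod1 (8389 and 5445 CPM). A further 36 went to a dendritic cell-like cluster. The neutrophil-like class as a whole then fell from 5700 and 5511 CPM of C1q to 3853 and 3681 CPM. Another 20 and 42 cells, all of them from the Camp cluster, formed a cluster of their own with 15902 and 13818 CPM of C1q. Led by Stfa2, with P2ry12, Siglech and P2ry13 among its top 10 genes, it was named microglia-like, with microglia markers at 10161 and 9432 CPM beside neutrophil markers at 71965 and 77964 CPM. In the wild-type library C1q differed by sex mark: it was 10207 CPM in 44 Xist-marked cells, 3076 CPM in 128 Y-marked cells and 7921 CPM in 105 cells with both marks. The heterozygous Xist-marked cells (175) lay between, at 6952 CPM. The ratio over all neutrophil-like cells was 0.05, became -0.76 among Xist-marked cells of both libraries, and 0.66 without cells holding both marks. The part of mixed droplets in these values was not tested.

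**Figure D3:**
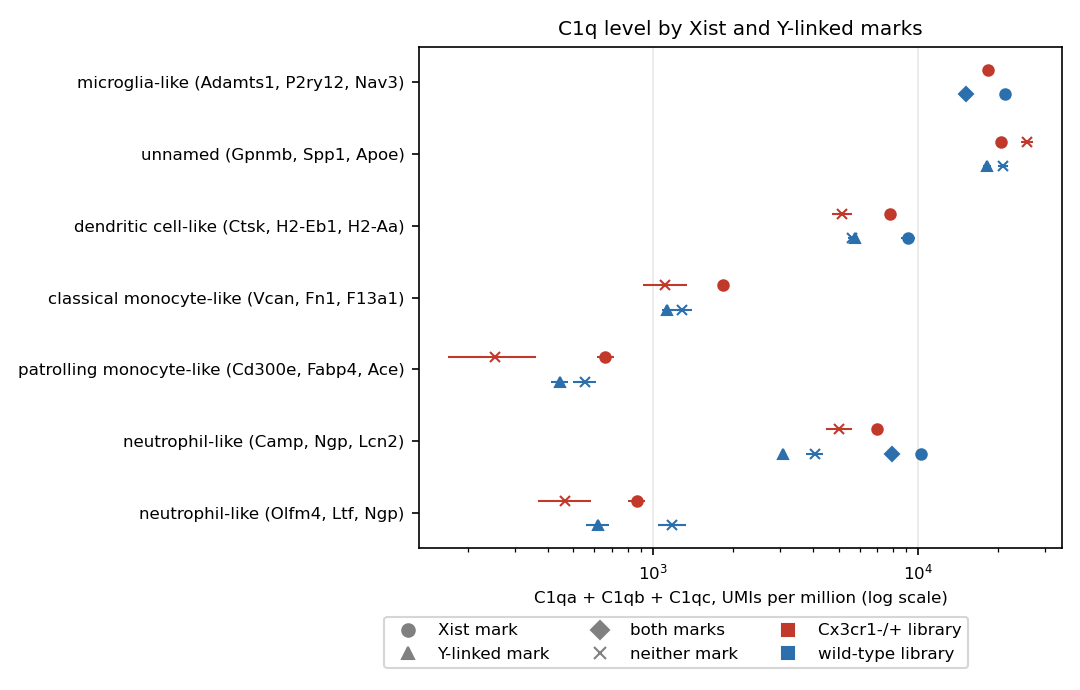
C1q level (CPM, log axis) of cells grouped by sex mark in 7 clusters and both libraries, for groups of at least 10 cells. In the Camp neutrophil-like cluster of the wild-type library the marks spread from 3076 to 10207 CPM, a wider spread than in the P2ry12 microglia-like cluster, where 94 Xist-marked cells had 21271 CPM and 29 cells with both marks 15087 CPM.

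Elsewhere the marks spread less. Dendritic cell-like cells of the wild-type library had 9155 CPM in 17 Xist-marked and 5781 CPM in 127 Y-marked cells, beside 7805 CPM in 140 Xist-marked heterozygous cells. A further 91 wild-type cells without either mark had 5623 CPM. In the border-associated macrophage-like cluster 21 and 12 Xist-marked cells had 20304 and 19182 CPM. Whether sex of the donor or of the recipient moved with genotype in these values was not tested.

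C3, the protein on which all complement routes converge, was found in neutrophil-like and monocyte-like cells and in the unnamed Elane cluster, and was low in microglia-like cells. C3 (chr17:57203970-57228136, minus strand) had 183 and 293 UMIs in classical monocyte-like cells, or 147 and 159 CPM. The Olfm4 neutrophil-like cluster had 183 and 142 CPM and the Camp cluster 132 and 94.8 CPM. The Elane cluster had 60 and 94 UMIs, or 126 and 141 CPM. In microglia-like cells C3 was close to absent, with 15 and 20 UMIs in the whole P2ry12 cluster and 1 and 2 UMIs in the Sparc cluster. C3 was seen in 27.8% and 26.6% of classical monocyte-like cells at 2000 UMIs a cell, and in 1 of 85 and 2 of 116 P2ry12 cells, no more than the 2 of 51 seen among wild-type NK cell-like cells. The Camp cluster held 52.7% and 48.8% of all C3 UMIs of kept cells. This share depends on depth as well as level, since its cells had a median of 22698.5 and 20217 UMIs. Its C3 level in CPM was below that of the classical monocyte-like and Olfm4 clusters.

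C3 differed between the libraries beyond 1.5-fold in 1 cluster. Dendritic cell-like cells had 18 and 46 UMIs, 7.67 and 16.0 CPM, a log2 ratio of -1.06 (-1.93 to -0.25). It was the only one of 7 measured members past 1.5-fold in that cluster, where 11.3% of all genes with at least 50 UMIs were. The level is low, and without a cell filter the ratio was -0.35. Markers of classical monocytes (all 8 detected, 570 and 1047 CPM summed) and of patrolling monocytes (all 10, 627 and 1190 CPM) were lower in the same library, and their part in the C3 ratio was not tested. In the Camp cluster the ratio was 0.48 (0.33 to 0.64), under 1.5-fold, and the share of cells with C3 was 26.1% and 15.4%.

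C4b, the classical-pathway component cleaved before C3, was rare and had its highest level in border-associated macrophage-like cells. C4b (chr17:34728380-34743882, minus strand) gave only 254 UMIs in all kept cells. Its near-identical neighbour C4a makes the counts of both uncertain. The border-associated macrophage-like cluster had 28 and 69 UMIs, 105 and 238 CPM, and these were 34.2% and 40.1% of all C4b UMIs. The log2 ratio there was -1.19 (-1.88 to -0.53). It was the only one of 7 measured members beyond 1.5-fold, in a cluster where 14.6% of genes were. The ratio was -1.38 without the shared barcodes and -1.74 among Xist-marked cells, but -0.16 when each cell had equal weight. The shares of cells with C4b, 5 of 21 and 5 of 22, were alike. Oligodendrocyte lineage-like cells, found in the heterozygous library alone (11 cells), had 8 UMIs or 77.5 CPM.

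C4b in wild-type neutrophil-like cells of the Camp cluster came mostly from cells with both sex marks. The Camp cluster had 22 and 72 UMIs, 4.32 and 9.30 CPM, a ratio of -1.10 (-1.86 to -0.40), the only one of 8 members past 1.5-fold beside 7.01% of genes. Of the 72 wild-type UMIs, 66 lay in the 105 cells with both Xist and Y-linked UMIs. All 22 heterozygous UMIs lay in the 175 Xist-marked cells. In the whole neutrophil-like class C4b was again 1 of 8 past 1.5-fold, where 6.42% of genes were, and its ratio there turned from -1.13 to 0.46 with equal weight per cell. Over all kept cells C4b was the only member of 8 past 1.5-fold (82 and 172 UMIs, -0.74, -1.14 to -0.35), beside 10.6% of all genes.

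Among clusters with at least 50 UMIs of its gene, properdin was highest in border-associated macrophage-like, dendritic cell-like and classical monocyte-like cells. Cfp (X chromosome, chrX:20925454-20931555, minus strand) stood at 224 and 266 CPM in the first, 198 and 227 CPM in the second and 196 and 169 CPM in the third. It was low in the other C1q-rich clusters: 28.8 and 31.6 CPM in the P2ry12 cluster, 17.0 and 23.7 CPM in the Sparc cluster and 13.7 and 19.4 CPM in the Gpnmb cluster. Border-associated macrophage-like cells were thus 7.78-fold and 8.43-fold above the P2ry12 cluster. The patrolling clusters lay between, at 85.5 and 83.7 CPM (Cd300e) and 63.3 and 73.5 CPM (Dusp16). No cluster differed by 1.5-fold between the libraries among those with 50 UMIs of Cfp. The Camp cluster came nearest, at 75.1 and 103 CPM (-0.46, -0.63 to -0.28), and in its wild-type cells Cfp was 99.8 CPM with the Xist mark and 114 CPM with the Y mark.

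**Figure D4:**
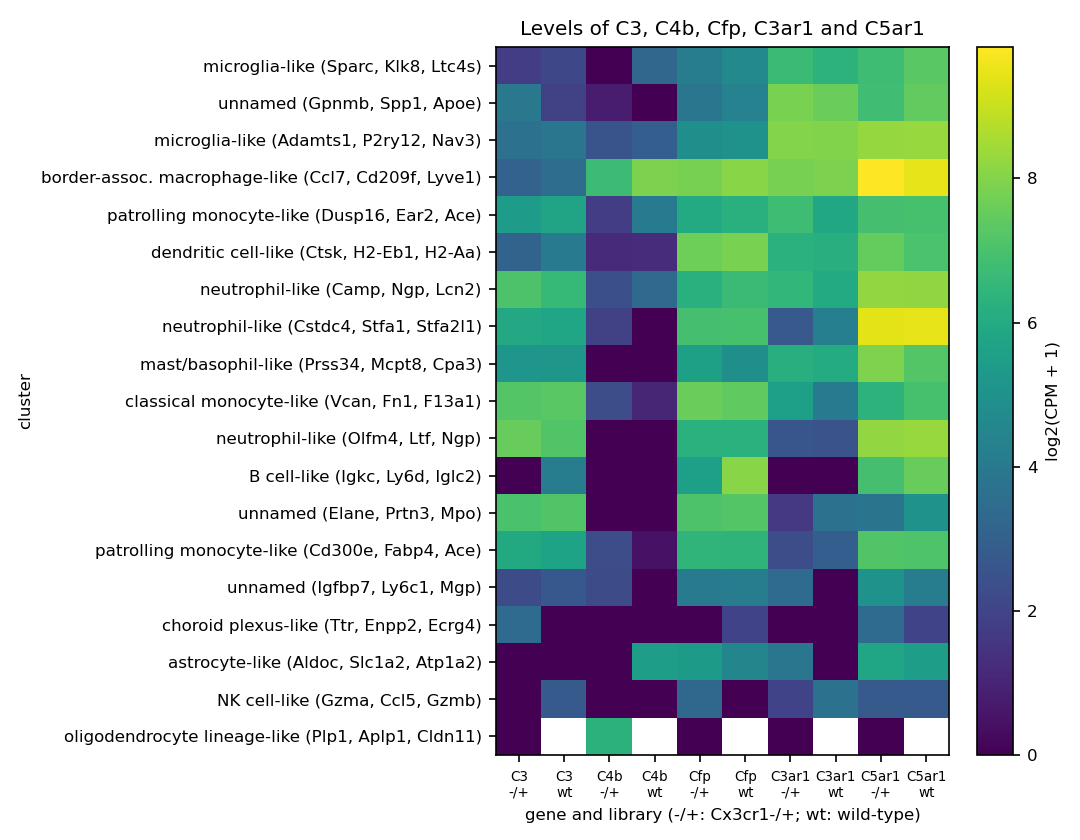
Levels of C3, C4b, Cfp, C3ar1 and C5ar1 as log2(CPM + 1) in every cluster and library; white marks the oligodendrocyte lineage-like cluster of the wild-type library, which held no cells. C3 is high in classical monocyte-like, Olfm4 and Camp neutrophil-like cells and the Elane cluster, C4b in border-associated macrophage-like cells, C5ar1 there and in the Stfa neutrophil-like cluster, and C3ar1 in the P2ry12, Gpnmb and border-associated macrophage-like clusters.

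The receptors differed in where they were found. C3ar1 (chr6:122847138-122856161, minus strand), the receptor for the C3a fragment, was at 257 and 245 CPM in the P2ry12 microglia-like cluster, 232 and 197 CPM in the Gpnmb cluster and 224 and 238 CPM in border-associated macrophage-like cells. The Sparc cluster had 102 and 81.4 CPM, 0.40-fold and 0.33-fold of the P2ry12 cluster. C3ar1 was nearly absent from the Cd300e patrolling cells, at 3.96 and 6.74 CPM. Across the 30 columns it followed C1qa at r = 0.934, whereas C3, whose product it senses, did so at -0.16. Transcripts of the receptor and of its ligand's gene were thus highest in different clusters.

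C3ar1 was higher in the heterozygous library in classical monocyte-like and Dusp16 patrolling cells, but not in the Cd300e cells (5 and 17 UMIs). Classical monocyte-like cells had 56 and 28 UMIs, 45.1 and 15.2 CPM, a log2 ratio of 1.57 (0.89 to 2.28). Without the shared barcodes it was 1.5, and without a cell filter 0.70. The cells with C3ar1 were few, 5 of 90 and 3 of 154 at 2000 UMIs a cell. The Dusp16 patrolling cluster had 45 and 26 UMIs, 109 and 56.2 CPM (0.96, 0.23 to 1.72), 1 of 6 members past 1.5-fold against 11.7% of genes. In the Camp cluster the ratio was 0.49, and C3ar1 there was 98.0 CPM in Xist-marked and 22.0 CPM in Y-marked wild-type cells. Over all neutrophil-like cells the ratio went from 0.38 to -0.36 among Xist-marked cells of both libraries.

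C5ar1, the receptor for the C5a fragment and a strong chemoattractant receptor of neutrophils, was high in a neutrophil-like cluster and in border-associated macrophage-like cells. C5ar1 (chr7:16246743-16259540, minus strand; its relative C5ar2 lies 2588 bases away) was at 905 and 695 CPM in border-associated macrophage-like cells and 687 and 707 CPM in the Stfa neutrophil-like cluster. The P2ry12 cluster had 304 and 316 CPM, and the Olfm4 and Camp neutrophil-like clusters 302 and 313, and 300.2 and 294 CPM. The order of these 3 clusters was not separated by the counting intervals. The Gpnmb cluster (112 and 175 CPM) and the Sparc cluster (109 and 158 CPM) were lower, at 0.37-fold and 0.55-fold, and 0.36-fold and 0.50-fold, of the P2ry12 cluster. After thinning, C5ar1 was seen in 76.4% and 77.8% of the Stfa cells and in 16 of 21 and 11 of 22 border-associated macrophage-like cells.

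C5ar1 was lower by more than 1.5-fold in the heterozygous library in a pair of clusters. The Sparc cluster, with 45 and 93 UMIs, was lower too, but under 1.5-fold. In the Gpnmb cluster C5ar1 had 155 and 63 UMIs and a log2 ratio of -0.65 (-1.08 to -0.20). It was the only one of 5 measured members past 1.5-fold there, where 15.5% of genes were. With equal weight per cell the ratio was -0.51, under 1.5-fold, and without the shared barcodes -0.60. Of the 154 heterozygous cells of this cluster 143 were Xist-marked, and of the 54 wild-type cells 21 were Y-marked; the part of this in the ratio was not tested. In classical monocyte-like cells it had 100 and 228 UMIs, 80.5 and 124 CPM, and a ratio of -0.62 (-0.98 to -0.28). The ratio was -0.60 without the shared barcodes and -0.51 with equal weight per cell. C5ar1 was higher in dendritic cell-like cells (179.9 and 130.4 CPM, 0.46, 0.26 to 0.67) and in border-associated macrophage-like cells (0.38), under 1.5-fold in each. In the border-associated macrophage-like cluster all 13 neutrophil markers were detected, at 25428 and 8286 CPM summed, and dendritic cell markers (6 and 7 of 12) summed to 10335 and 4395 CPM. Both were higher in the same library as C5ar1, and their part in its ratio was not tested.

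**Figure D5:**
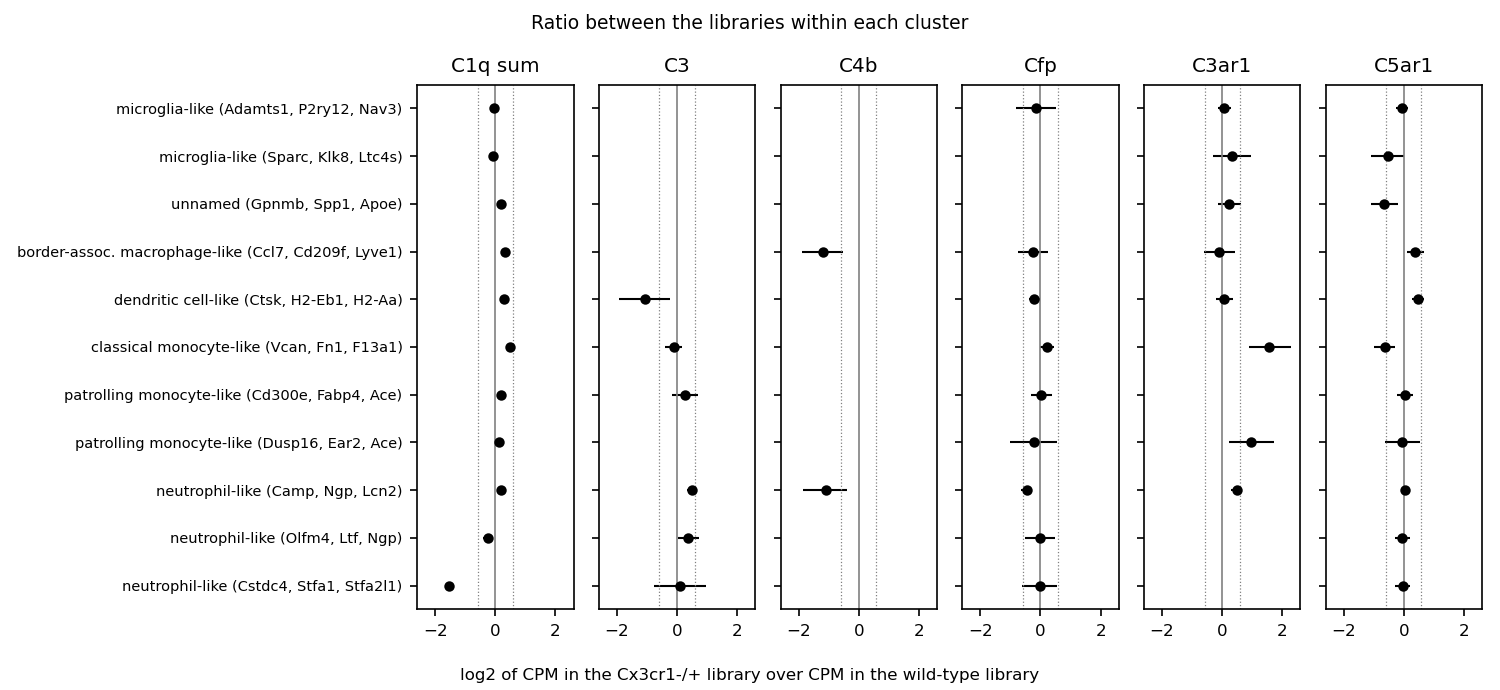
Log2 ratio of CPM, heterozygous over wild-type library, for the C1q sum and 5 members in 11 clusters, with exact conditional 95% intervals that cover counting error only; dotted lines mark 1.5-fold. C1q lies near 0 in both microglia-like clusters, C3ar1 at 1.57 and C5ar1 at -0.62 in classical monocyte-like cells, and C4b at -1.19 in border-associated macrophage-like cells.

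Counted over members, few passed 1.5-fold between the libraries in most clusters and classes given here. The mast cell or basophil-like, Igfbp7 and Elane clusters are not counted here, as no share of all genes is given for them. All 3 C1q chains passed 1.5-fold in each, but their C1q sums rest on few cells, as described below. In the microglia-like class 0 of 6 measured members did, beside 5.75% of 6956 genes, and their median log2 ratio was -0.08 against 0.04 for all genes. It was 0 of 6 in the P2ry12 cluster (6.29% of genes) and 0 of 5 in the Sparc cluster (9.06%). The classical monocyte-like cluster had 2 of 7 (C3ar1 higher, C5ar1 lower) beside 7.13% of genes, with medians of 0.47 and 0.01. The patrolling class had 3 of 7 (C1qb, C1qc and C3ar1 higher) beside 6.13%, but 0 of 6 in the Cd300e cluster alone, beside 5.69%. The Stfa neutrophil-like cluster had 3 of 6, the C1q chains, all lower, beside 20.8%. In the Olfm4 neutrophil-like cluster it was 0 of 6 beside 9.57%. The 3 chains varied together, so a count that holds all of them is not 3 separate differences.

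Between clusters, differences repeated in both libraries for several members. Border-associated macrophage-like cells exceeded the P2ry12 cluster beyond 1.5-fold in Cfp and in C5ar1 (2.97-fold and 2.19-fold), 2 of 6 measured members, where 6.6% of genes were higher in both libraries. The Gpnmb cluster was lower than the P2ry12 cluster in 2 of 6, Cfp (0.47-fold and 0.61-fold) and C5ar1, where 18.1% of genes were. The Sparc cluster had C1qb higher (1.67-fold and 1.74-fold) and both receptors lower among 5, beside 8.66% and 35.4% of genes. Classical monocyte-like cells exceeded the Cd300e patrolling cells in 5 of 6, the C1q chains, C3 (2.42-fold and 3.16-fold) and Cfp (2.30-fold and 2.01-fold), where 10.5% of genes were higher. The Dusp16 patrolling cells exceeded the Cd300e cells in the C1q sum by 14.9-fold and 15.4-fold, with 3 of 6 members higher, the C1q chains, where 5% of genes were.

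The neutrophil-like clusters differed by member. The Stfa cluster exceeded the Olfm4 cluster in C5ar1 (2.28-fold and 2.26-fold), Cfp (1.58-fold and 1.61-fold), C1qb and C1qc, 4 of 6 measured members beside 18.9% of genes. It was lower in C3 (0.33-fold and 0.39-fold), 1 of 6 beside 13.3%. The Camp cluster exceeded the Olfm4 cluster in 4 of 7, the C1q sum (8.69-fold and 6.42-fold) and C3ar1 (17.4-fold and 13.6-fold), but 54.2% of all genes were higher there too. Dendritic cell-like cells exceeded classical monocyte-like cells in C1q (4.35-fold and 4.98-fold) and C3ar1 (1.69-fold and 4.75-fold), 4 of 7 beside 10.7% of genes, and were lower in C3 (0.05-fold and 0.10-fold), 1 of 7 beside 10.3%.

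Genes whose levels over the 30 columns were most like each member were picked among 8738 genes with at least 200 UMIs by Pearson correlation of log2(CPM + 10). For the C1q sum they were Fcrls (r = 0.970), Trem2 (0.962) and Ccl12 (0.957). C3 was most like Nfe2 (0.922), Tkt (0.895) and Hp (0.887). C4b was most like Cd163 (0.966), Lyve1 (0.962) and Cd209f (0.944), all 3 among the leading genes of the border-associated macrophage-like cluster, where the C4b level was highest. Cfp was less closely matched, with Cxcl2 at 0.856, Myadm at 0.850 and Ccl6 at 0.848. C3ar1 was most like Tbxas1 (0.977), with Abcc3 and Arhgap22 at 0.957 each, and C5ar1 most like Siglece (0.892), Cd33 (0.883) and Marcksl1 (0.869). The columns share libraries and cluster boundaries, so these values describe likeness in these data.

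The rest of the complement system was thinly represented. Of 48 other complement genes listed by role, 19 had at least 50 UMIs over both libraries, 29 had fewer and 12 of those had none. None of the 6 terminal components, which form the membrane pore, reached 50 UMIs. Of the initiating molecules 3 of 13 did, of the other central components 2 of 5, of the regulators 7 of 15 and of the receptors 7 of 9. Microglia-like cells held the integrin chains of complement receptor 3, Itgam (508 and 478 CPM) and Itgb2 (293 and 276 CPM). C5ar2, the second C5a receptor, was at 32.5 and 45.7 CPM there. None of the 9 listed genes measured in that class passed 1.5-fold between the libraries.

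Over all kept cells 6 of the 19 passed 1.5-fold, beside 10.6% of all genes. In border-associated macrophage-like cells 2 of 6 passed, beside 14.6%, and of these Fcna, a ficolin that recognises microbial sugars, had 59 and 125 UMIs (220.5 and 432 CPM, -0.97), and so was lower in the same library as C4b. In neutrophil-like cells 4 of 13 passed, beside 6.42% of all genes: Fcnb, the second ficolin, was higher (119.7 and 66.0 CPM, 0.86), and Fcna (-0.86), Cfb (-0.92) and Itgax (28.9 and 44.6 CPM, -0.63) were lower. In dendritic cell-like cells Cd93 was lower (13.2 and 29.6 CPM, -1.16). In classical monocyte-like cells 0 of 9 passed beside 7.13% of all genes, in the patrolling class 0 of 7 beside 6.13% and in the Gpnmb cluster 0 of 8 beside 15.5%, counts too small to set apart from those shares. Outside the blood lineages, ependymal or choroid plexus-like cells held Clu at 2038 and 2129 CPM and Cd59a at 238 and 223 CPM, regulators of the terminal steps. Vtn, a further terminal regulator, was at 2074.5 and 754 CPM in the unnamed cluster led by Igfbp7, Ly6c1 and Mgp.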

How the data were processed

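Libraries came from the 10x Chromium 3′ kit (v3.1), per the labels. What was deposited are UMI counts per gene and barcode, without normalization. The authors used mm10 and Cell Ranger 4.0, per the submitters' processing notes, and Cell Ranger 5.0.0 wrote the matrices, per the file headers. Which of them did the counting is not known here.

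The members and gene lists were chosen with earlier results of these data known. Cells were kept from 500 genes up and below 10% mitochondrial UMIs (1489 of 1837 and 1949 of 2359), and Scrublet called 0 doublets. Both libraries were clustered together in scanpy 1.11.5 (2000 variable genes, 30 components, 15 neighbours, Leiden with igraph 0.11.9 at resolution 0.5) without complement genes, Xist, Y-linked genes and Cx3cr1. A cluster was named from listed markers of 19 cell types when at least 3 were 1.5-fold higher and its top 10 genes held more markers of that type than of another. Counts were summed per library and cluster and given as CPM with exact Poisson intervals. Ratios carry exact conditional binomial intervals and shares Clopper-Pearson ones, at 95%. Past 1.5-fold means a ratio beyond 1.5, counted among genes whose UMIs in the libraries together reach 50. Shares of cells used cells thinned to 2000 UMIs. No test across samples was possible with 1 library per genotype.

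All 8 members were named. Of the other complement genes, the rule allowed those with at least 50 UMIs, up to 4 per role and class past 1.5-fold, or the most abundant; a gene that it also allowed is not reported here. For likeness it took the 3 genes of highest correlation. Of 32285 gene IDs, 32235 were in the GRCm38 annotation used for positions. Tested on simulated Poisson counts for the microglia-like class (6956 genes, 200 changed 2-fold), the intervals held 96.1% of true ratios. The intervals assume such counts, and the simulation had no variation between cells or libraries, so it checks the calculation only. The alternatives were other cell filters, resolutions, scalings (TMM from edgeR 4.0.16 in R 4.3.3, and median of ratios), equal weight per cell, UMI minimums of 10 and 200, cells of 1 sex mark, and the shared barcodes left out. Added after seeing the data were single clusters of the microglia-like and patrolling classes and neutrophil-like cells without both sex marks.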

Additional observations from a re-analysis of the deposited data

Results flagged for a closer look

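For several members, the ratio between the libraries lay beyond 1.5-fold in opposite directions in different clusters, each with a counting interval that left out equality. These differences between clusters were not tested. The C1q sum had a log2 ratio of 2.52 in mast cell or basophil-like cells and -2.54 in the unnamed cluster led by Elane, Prtn3 and Mpo. By chain, C1qa gave 2.36 and -2.70 and C1qb 2.68 and -2.23 in the same pair of clusters. C1qc gave 3.27 in the unnamed cluster led by Igfbp7, Ly6c1 and Mgp and -2.86 in the Elane cluster. These sums rest on few cells: 2 of 14 heterozygous mast cell or basophil-like cells held 98.0% of their C1q UMIs, and 6 wild-type Elane cells held 94.7% of theirs. In the Igfbp7 cluster 8 heterozygous cells held 89.0%. Neutrophil markers in the mast cell or basophil-like cells summed to 59655 and 1405 CPM, and their part in the C1q values was not tested. C5ar1 gave 0.76 in mast cell or basophil-like cells and -0.65 in the Gpnmb cluster.

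C1q was also present in the barcodes that the cell filter left out, which enter only the values given without a cell filter. It stood at 1945 CPM in 348 heterozygous and 3359 CPM in 410 wild-type barcodes, above the level that a count of 0 allows, at a median of 701 and 711 UMIs per barcode.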

How the results depend on the processing

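Counts of members past 1.5-fold changed with the settings as follows. The share of all genes past 1.5-fold was computed only for the main setting. The changed counts below, of members and of other complement genes, therefore cannot be set apart from a change in that share. Microglia-like members went from 0 to 1 at a minimum of 10 UMIs. Gpnmb cluster members went from 1 to 2 without a cell filter or at 10 UMIs, and to 0 with the complement genes kept in clustering or equal weight per cell. Border-associated macrophage-like members went from 1 to 0 with equal weight or 200 UMIs. Dendritic cell-like members went from 1 to 0 without a filter or at 200 UMIs, and to 2 with the stricter filter, genes kept, resolution 0.25 or shared barcodes left out. Classical monocyte-like members went from 2 to 1 with equal weight or 200 UMIs. Patrolling members went from 3 to 0 without a filter, with the stricter filter or in the larger cluster only (added after seeing the data), and to 1 with genes kept, shared barcodes left out or equal weight. Neutrophil-like members went from 1 to 0 at resolution 1.0, equal weight or 200 UMIs, to 2 with TMM or median of ratios, and to 3 without cells holding both sex marks (added after seeing the data).

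Counts of other complement genes moved likewise. In microglia-like cells 0 became 1 without a filter, without shared barcodes, with equal weight or in each cluster alone (added), and 2 at 10 UMIs. In the Gpnmb cluster 0 became 1 without a filter, with the stricter filter, genes kept, shared barcodes left out, TMM, median of ratios or 10 UMIs, and 2 with equal weight. In border-associated macrophage-like cells 2 became 1 with TMM, median of ratios, equal weight or 200 UMIs, and 5 at 10 UMIs. In dendritic cell-like cells 1 became 3 with the stricter filter or resolution 0.25, 2 with genes kept, TMM or median of ratios, 4 at 10 UMIs and 0 at 200. In classical monocyte-like cells 0 became 1 at 10 UMIs. In neutrophil-like cells 4 became 1 at resolution 1.0 or equal weight, 8 at 10 UMIs, 2 at 200 and 0 without cells holding both marks (added). The causes were not tested beyond what these settings change by construction.

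In the patrolling class the C1qc ratio of 0.61 reversed to -0.10 without a filter and -0.20 among Xist-marked cells, and the C1q sum of 0.62 to -0.064 among Xist-marked cells. The neutrophil-like C4b ratio of -1.13 reversed to 0.46 with equal weight. Of the recomputed ratios whose reported value lay beyond 1.5-fold, 96 of 100 kept their sign, as did 423 of 476 others. These settings reuse the same libraries, and each C1q chain and the sum count separately. By size, 205 ratios moved outside the counting interval of the reported value, 4 reversed and 367 stayed within it. Of C1q levels 55 moved and 25 stayed, of shares of cells 238 moved and 178 stayed, and of C1qb percents 6 moved and 20 stayed. The stricter filter left no border-associated macrophage-like cluster. Scaling moved the median of all genes by over 0.1 only in neutrophil-like cells, by 0.114 under median of ratios. No paired analysis was possible because each genotype has 1 library. Depth limits C4b, C3 in microglia-like cells and every cluster under 20 cells.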
